A study of Mus musculus with 12 samples.

Results

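The genes described here encode 9 TRPC and TRPM cation channels, Trpc1, Trpc4, Trpc5, Trpc6, Trpc7, Trpm2, Trpm3, Trpm4 and Trpm7, chosen by symbol from the 23079 genes of a deposited count table. They were compared between RNA of dopaminergic neurons of the substantia nigra pars compacta (SNpc) and of the ventral tegmental area (VTA) of C57BL/6 mice. Both groups were described only by region and strain, with no treatment, and the labels call the material TRAP samples, read here as translating ribosome affinity purification, the pull-down of tagged ribosomes of 1 cell type with the RNA bound to them. The sources used here do not give the promoter that drives the tag, the age or sex of the mice, or how many animals went into a library. Of 12 columns, 6 per region, SNpc columns 4 and 5 were identical at each gene, and so were VTA columns 2 and 3. As the members of each pair differed by less than sampling noise allows, a pair was counted as 1 sample, which left 5 libraries per region.

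TRP channels are tetramers that let sodium, calcium and other cations into the cell, which depolarises a neuron. TRPC channels open after receptors coupled to Gq proteins have activated phospholipase C. TRPM channels respond to more varied signals, among them internal calcium, ADP-ribose made under oxidative stress, steroids, heat and magnesium. In midbrain dopaminergic neurons channels of both families have been studied as carriers of the slow inward currents that support pacemaking and burst firing.

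All 9 genes were listed and all 9 passed the filter on low counts, with 60 to 5829 reads per library. A single channel gene was called higher in SNpc and 4 in VTA, 5 of the 9 in all, with edgeR's quasi-likelihood test at an adjusted p under 0.05 (Benjamini-Hochberg, 15685 genes). Among all genes tested 38.2% were called, 17.8% as higher in SNpc and 20.4% as higher in VTA, so calls of this kind were frequent in this comparison. Trpc6 was the gene higher in SNpc, and Trpc5, Trpc7, Trpm3 and Trpm7 were those higher in VTA. The values of all libraries are plotted by gene and region, in CPM, which are read counts scaled to library size. The median log2 fold change of the 9 genes, always SNpc minus VTA, was -0.20, against -0.04 for all genes tested.

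**Figure D1:**
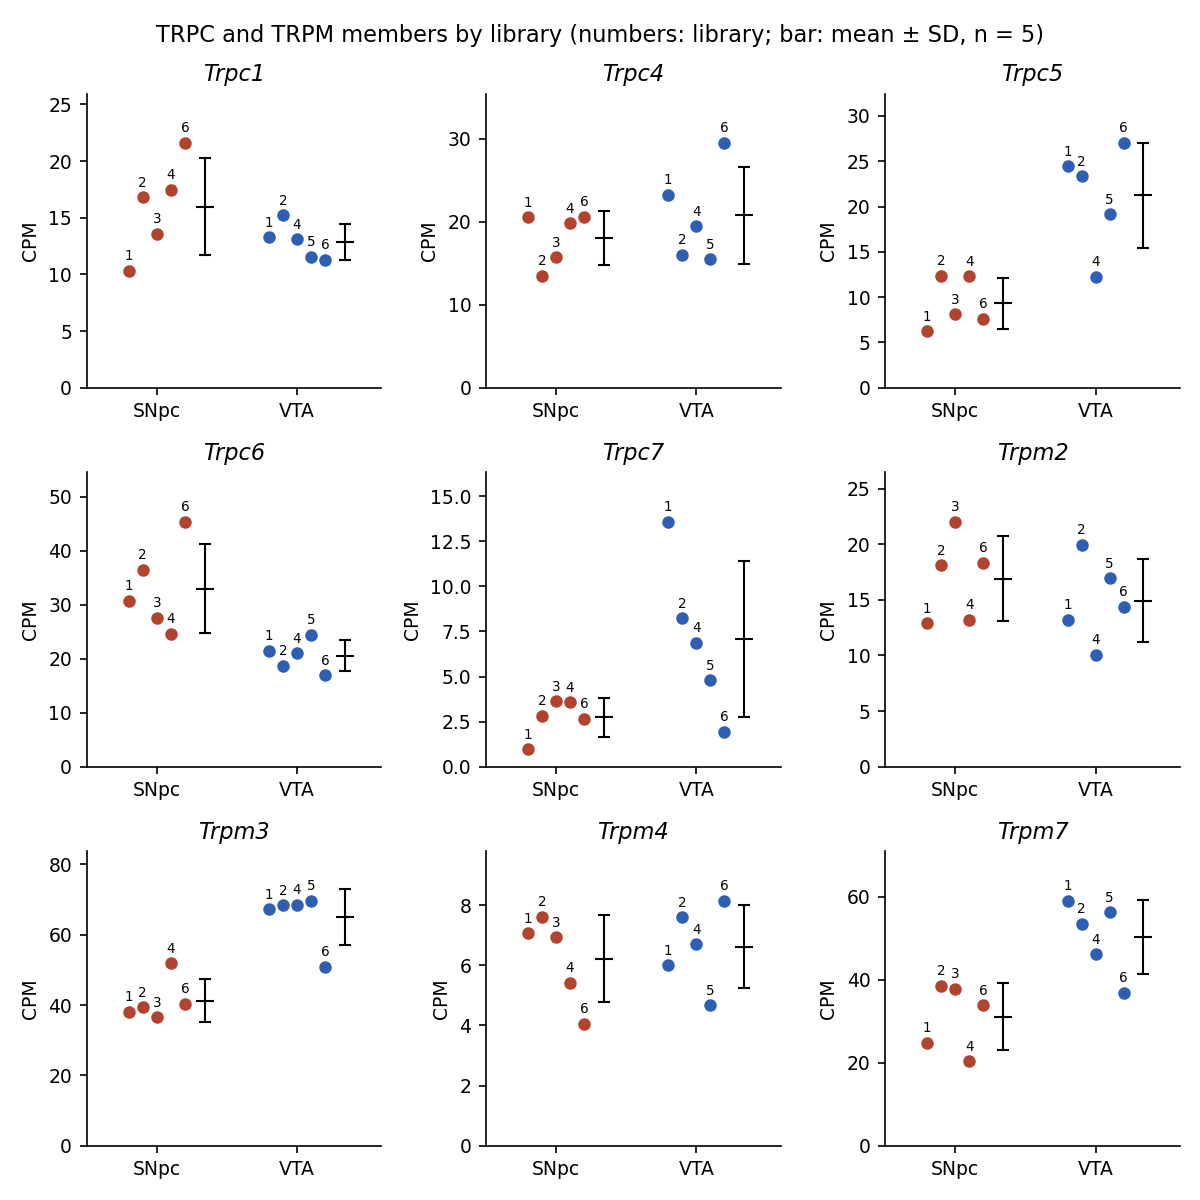
Expression in CPM (read counts scaled to library size with TMM factors, vertical axes) of the 9 channel genes in 5 SNpc libraries (red) and 5 VTA libraries (blue), numbered by library, with the mean ± SD of each region as a bar. The groups of Trpc6 do not overlap, those of Trpc5, Trpm3 and Trpm7 touch in 1 or 2 libraries, and those of Trpc1, Trpc4, Trpm2 and Trpm4 lie over each other.

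Total counts ran from 62951005 to 65959443 in SNpc and from 62356964 to 81393907 in VTA. Dopaminergic markers (10 genes) summed to 10009 to 14538 CPM in SNpc and 5077 to 8385 CPM in VTA, with Slc6a3, the dopamine transporter, at 5256 ± 635 against 2499 ± 580 CPM and Th, tyrosine hydroxylase, at 3381 ± 564 against 2280 ± 394 CPM (SD, n = 5 each). Markers of other cells were present in both regions. Astrocyte markers (9 genes, of which 8 had a higher mean in VTA and 3 were called for it) summed to 258 to 430 CPM in SNpc and 442 to 590 in VTA, and precursors of oligodendrocytes to 20.04 to 67.2 and 51.7 to 77.2. Microglia markers summed to 15.3 to 41.0 and 38.7 to 54.0 CPM, and vascular markers to 3.04 to 14.5 and 6.09 to 97.5. The vascular 97.5 CPM was that of VTA library 1 alone, and the next highest, VTA library 2, was at 14.3. Myelin markers summed to 274 to 1383 CPM in SNpc and 687 to 862 in VTA, with SNpc library 4 the highest of all. Gfap, the 1 astrocyte marker with a higher mean in SNpc, averaged 5.32 ± 1.91 CPM over SNpc libraries and 4.87 ± 4.69 over VTA libraries, and Mbp, of myelin, 152 ± 118 and 248 ± 38.2 (SD, n = 5 each). GABAergic markers summed to 301 to 568 and 320 to 418 CPM, glutamatergic markers to 255 to 317 and 220 to 257, and cholinergic and serotonergic markers to 6.45 to 11.6 and 5.03 to 35.8. Of the 8 glutamatergic markers 7 had a higher mean in VTA, and 2 of these were called for it. They were Slc17a6, at 36.1 ± 21.7 CPM in SNpc against 93.4 ± 16.8 in VTA, and Slc17a8, at 0.0965 ± 0.127 against 3.26 ± 2.70. The glutamatergic sum was higher in SNpc through Nrn1, at 212 ± 15.6 against 97.5 ± 20.8 CPM (SD, n = 5 each), the 1 called for SNpc. Over 33 glial markers the mean log2 CPM was 3.64 in SNpc library 4, 1.67 to 2.19 in the other SNpc libraries and 2.92 to 3.39 in VTA. SNpc library 4 thus stood apart from its region. Without it 1 channel gene was called for SNpc and 4 for VTA, against 20.9% and 20.1% of all genes, with log2 fold changes of 0.83 for Trpc6, -1.245 for Trpc5, -1.44 for Trpc7, -0.69 for Trpm3 and -0.51 for Trpm7.

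Trpc6 forms a channel that diacylglycerol, a product of phospholipase C, opens directly. It lies on mm10 chromosome 9 from 8544142 to 8680741 on the plus strand, in 13 exon blocks. Trpc6 stood at 30.7, 36.5, 27.6, 24.6 and 45.4 CPM in SNpc libraries 1, 2, 3, 4 and 6, and at 21.5, 18.7, 21.0, 24.5 and 16.9 CPM in VTA libraries 1, 2, 4, 5 and 6. Every SNpc library was above every VTA library, although SNpc library 4 and VTA library 5 were nearly level. Trpc6 was the 1 gene of the 9 whose groups did not overlap, against 26.6% of all genes tested. Its log2 fold change was 0.68 (standard error 0.17, edgeR adjusted p = 0.00432), a level 1.61-fold higher in SNpc. The two-sided exact permutation test over libraries gave p = 0.00794, the smallest that 5 against 5 allows. With glial markers as a covariate the log2 fold change was 0.47 and the call ended (edgeR adjusted p = 0.105). That fit called 0 of the 9 genes higher in SNpc and 3 in VTA, against 9.89% and 13.7% of all genes. Whether other cells have a part in the difference was not tested, and fewer cells of a type and less RNA per cell cannot be told apart in such libraries.

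Trpc7, the close relative of Trpc6 that is also opened by diacylglycerol, showed the opposite direction. It lies on chromosome 13 from 56773113 to 56895993 on the minus strand. Its SNpc libraries held 0.954, 2.82, 3.63, 3.59 and 2.65 CPM, and its VTA libraries 13.6, 8.23, 6.88, 4.80 and 1.94 CPM, in library order. The VTA libraries were widely spread, and VTA library 6 lay below most SNpc libraries. This gave a log2 fold change of -1.38 (standard error 0.45, edgeR adjusted p = 0.0228). The exact permutation test did not reach 0.05 (p = 0.0635). The call also ended without VTA library 1, where the log2 fold change was -0.998 (edgeR adjusted p = 0.0983), and without VTA library 2 (edgeR adjusted p = 0.0510). With glial markers as a covariate the log2 fold change was -0.76 (edgeR adjusted p = 0.432).

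Trpc5 forms, alone or with Trpc1, a calcium-permeable channel that Gq and Gi signals open. It lies on chromosome X from 144381671 to 144688180 on the minus strand, in 11 exon blocks. In SNpc libraries 1, 2, 3, 4 and 6 Trpc5 stood at 6.25, 12.4, 8.09, 12.3 and 7.60 CPM. In VTA libraries 1, 2, 4, 5 and 6 it stood at 24.4, 23.4, 12.2, 19.2 and 27.1 CPM. VTA library 4 was as low as the highest SNpc libraries, and the other VTA libraries were above all of SNpc. Between the regions Trpc5 had a log2 fold change of -1.19 (standard error 0.24, edgeR adjusted p = 9.39e-04), a level 2.28-fold higher in VTA, with exact permutation p = 0.0238. Trpc5 was called in the same direction under all 23 alternatives run, with log2 fold changes of -1.33 to -0.90 and edgeR, limma or DESeq2 adjusted p of 2.19e-05 to 0.0389. It was the only channel gene of the 9 called against a minimum change of 1.5-fold (edgeR glmTreat adjusted p = 0.0347), a test passed by 0.599% of all genes as higher in SNpc and by 7.31% as higher in VTA.

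Trpc4, which shares its regulation with Trpc5, was not called. It lies on chromosome 3 from 54156035 to 54318471. SNpc libraries held 20.5, 13.5, 15.7, 19.8 and 20.6 CPM, and VTA libraries 23.2, 16.0, 19.5, 15.5 and 29.5 CPM. The groups overlapped broadly, with a log2 fold change of -0.20 and a 95% interval from -0.61 to 0.21 (edgeR adjusted p = 0.444). Trpc1, which assembles with Trpc4 and Trpc5 (chromosome 9, 95705082 to 95750375), was not called either. Its SNpc libraries held 10.3, 16.8, 13.6, 17.5 and 21.6 CPM and its VTA libraries 13.3, 15.2, 13.1, 11.6 and 11.3 CPM. The log2 fold change was 0.31, with a 95% interval from -0.11 to 0.72 (edgeR adjusted p = 0.231). The interval of each of these genes includes no change, and it does not show that the regions are alike.

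The TRPC genes therefore differed in their proportions. Trpc6 per Trpc5, both as CPM per kb of exon, was 4.03, 2.42, 2.80, 1.65 and 4.90 in the SNpc libraries. In the VTA libraries this ratio was 0.721, 0.657, 1.41, 1.05 and 0.513. No VTA library reached the lowest SNpc library. The size of the ratio depends on the exon length taken for Trpc6, but the order of the libraries does not. The ratio was chosen after its values were seen, combines genes already called in opposite directions and has no test. The summed TRPC level overlapped between regions, at 15.9 to 22.2 CPM per kb in SNpc and 17.4 to 23.4 in VTA.

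Trpm3, a channel opened by heat and by the steroid pregnenolone sulfate, was the most counted of the 9. It lies on chromosome 19 from 22139046 to 22995410 on the plus strand, a span of 856 kb with 14491 bases of exon. Its SNpc libraries held 38.1, 39.4, 36.5, 51.9 and 40.4 CPM, and its VTA libraries 67.3, 68.4, 68.5, 69.7 and 50.9 CPM. SNpc library 4 and VTA library 6 were almost equal, and the other libraries were apart. Trpm3 had a log2 fold change of -0.65 (standard error 0.13, edgeR adjusted p = 6.79e-04), 1.57-fold higher in VTA, with exact permutation p = 0.0159. Choroid plexus, a tissue known for Trpm3, and ependyma were checked with 11 markers, which summed to 18.6 to 26.7 CPM in SNpc and 46.5 to 60.5 CPM in VTA. All 11 had a higher mean in VTA. Prlr, a hormone receptor, averaged 9.21 ± 2.10 CPM over SNpc libraries and 36.3 ± 5.40 over VTA libraries. Most of the difference between the sums came from Prlr. It was the 1 called of 7 tested, where 20.4% of all genes were called for VTA. Foxj1, a factor of ciliated cells, averaged 7.12 ± 0.666 and 9.78 ± 1.63 CPM and was not called (edgeR adjusted p = 0.0812). Its groups did not overlap, as was the case for 26.6% of all genes tested. Ttr, the abundant choroid plexus transcript, averaged 1.77 ± 1.04 and 2.03 ± 1.96 CPM, Kl 1.15 ± 1.197 and 2.06 ± 1.82, and Kcnj13 0.313 ± 0.251 and 1.08 ± 0.289 (SD, n = 5 each). Of the rest, Folr1 was at 0 in 9 of 10 libraries, and Tmem212 was at 0 in all of SNpc and reached 1.14 CPM in VTA. The part of these cells in the Trpm3 difference was not tested. Trpm3 exons share 351 bases with C330002G04Rik and 277 bases with Gm27151 on the opposite strand in the full annotation, and since no source used here states counting by strand, reads from these bases cannot be told apart.

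Trpm3 is also the host of a microRNA gene, Mir204, in an intron and on the same strand. Both mature arms are shown because a reader of Trpm3 values may ask about them, from RefSeq on GRCm38.p6, 5′ to 3′, with the seed in capitals.
mmu-miR-204-5p, chr19:22750610-22750631: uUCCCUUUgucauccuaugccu
mmu-miR-204-3p, chr19:22750649-22750669: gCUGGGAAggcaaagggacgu
The arms have different seeds. The count table listed Mir204 at 0 in all 10 libraries, which were not made to capture small RNA, so Trpm3 values say nothing of the level of either arm.

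Trpm7, a channel for magnesium, zinc and calcium that carries a kinase domain, was also higher in VTA. It lies on chromosome 2 from 126791565 to 126876230 on the minus strand, in 39 exon blocks. In SNpc it stood at 24.9, 38.6, 37.9, 20.4 and 33.9 CPM. In VTA it stood at 59.1, 53.6, 46.2, 56.3 and 36.9 CPM. VTA library 6 fell among the higher SNpc libraries, and the other VTA libraries were above all of SNpc. Its log2 fold change was -0.70 (standard error 0.18, edgeR adjusted p = 0.00555), 1.62-fold higher in VTA, with exact permutation p = 0.0238.

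The bases before the start of Trpm7 are shown as the regulatory sequence of a called channel gene. They are the 250 bases upstream of the RefSeq start (GRCm38.p6, minus strand, 5′ to 3′), with CG dinucleotides in capitals.
Trpm7 promoter, chr2:126876262-126876511: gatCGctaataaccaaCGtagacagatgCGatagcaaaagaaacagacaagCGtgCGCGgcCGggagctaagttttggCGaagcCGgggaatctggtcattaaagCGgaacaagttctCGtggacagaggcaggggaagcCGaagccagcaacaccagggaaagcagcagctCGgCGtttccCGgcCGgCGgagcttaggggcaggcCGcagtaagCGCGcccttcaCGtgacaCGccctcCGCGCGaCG
This window held 26 CG dinucleotides and 60.4% G and C, against medians of 6 and 52.4% over 32851 RefSeq windows of this length. Windows for 8 of the 9 genes were in the table. That of Trpc6 had 12 CG dinucleotides, that of Trpc5 7 and that of Trpc7 2. Both strands of the windows were searched for 6 short motifs that do not contain each other. The core site of the dopaminergic factor Nr4a2, AGGTCA, is held by 14.0% of all windows. The site of the homeodomain factors Otx2 and Pitx3, TAATCC, is held by 6.25%, and the forkhead site, TGTTTAC, by 3.17% of them. The Sox site, ACAATG, is held by 10.7% of windows and the box of Sp factors, GGGCGG, by 32.7%. The box named after its letters, TATAAA, is held by 12.4% of windows. None of the 6 was matched in the windows of Trpm7, Trpc5, Trpc6 or Trpc7, which says only that these letters are not there. The window of Trpc1 held the Sp box 3 times, that of Trpc4 held it 2 times with 1 TATAAA, and that of Trpm2 held each of these 1 time. Trpm3 has 2 windows, and 1 of them held the Nr4a2 core site 1 time. RefSeq starts can lie inside the GENCODE gene spans printed here. All 250 bases of the Trpm2 window and of the Trpm3 window with the match lie inside the span, and 204 of the Trpc7 window.

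Trpm2 and Trpm4 were not called. Trpm2 (chromosome 10, 77907722 to 77970563), which ADP-ribose and calcium open under oxidative stress, stood at 12.9, 18.1, 22.0, 13.2 and 18.3 CPM in SNpc and at 13.2, 19.9, 10.1, 16.9 and 14.4 CPM in VTA. The log2 fold change was 0.18, with a 95% interval from -0.25 to 0.62 (edgeR adjusted p = 0.520). Trpm4 (chromosome 7, 45302632 to 45333780), a channel for monovalent ions that internal calcium opens, stood at 7.06, 7.61, 6.93, 5.42 and 4.06 CPM in SNpc and at 6.00, 7.59, 6.71, 4.67 and 8.16 CPM in VTA. Its log2 fold change was -0.09, with a 95% interval from -0.63 to 0.44 (edgeR adjusted p = 0.804). The libraries of both genes were mixed across regions.

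Transcript length moved with the region, which touches the TRPM genes most. Over 15468 genes with a length, the quintile with the shortest exons lay at a median log2 fold change of 0.31 and that with the longest exons at -0.45. Trpm2, Trpm3 and Trpm7 belong to the longest quintile, which starts at 5.5 kb. When a trend over length and GC content was removed from each library with the scale kept, the log2 fold change of Trpm3 was -0.13 (edgeR adjusted p = 0.473) and that of Trpm7 -0.44 (edgeR adjusted p = 0.0575), and both calls ended. Trpm2 was then called higher in SNpc, with a log2 fold change of 0.58 (edgeR adjusted p = 0.0255). Trpc5 (-1.09), Trpc6 (0.82) and Trpc7 (-1.29) kept their calls on the same scale. With the trend removed 2 of the 9 genes were called higher in SNpc and 2 in VTA, where 15.2% and 16.5% of all genes were. With the scale refitted after removal the numbers were again 2 and 2, against 14.8% and 17.1%. The plot of fold changes sets these values beside those of the other fits.

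**Figure D2:**
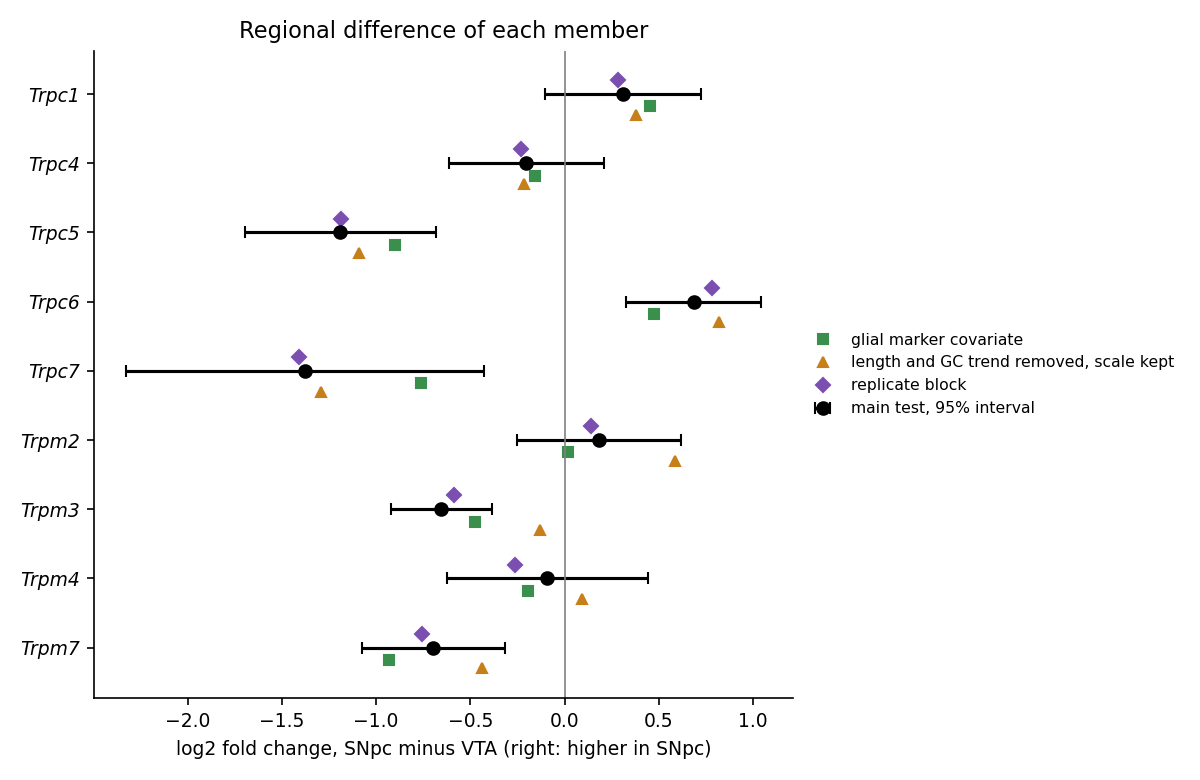
Log2 fold change, SNpc minus VTA (horizontal axis), of the 9 channel genes, as black points with 95% intervals from edgeR, and as coloured marks for fits with glial markers as a covariate, with the length and GC trend removed, and with the replicate number as a block. The intervals of Trpc5, Trpc6, Trpc7, Trpm3 and Trpm7 exclude 0, and the mark without the length trend is near 0 for Trpm3 (-0.13) and to the right for Trpm2 (0.58).

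Levels of different genes were compared per length, as CPM per kb of exon. In SNpc the order of the means was Trpc6 (6.51 ± 1.62), Trpc4 (5.19 ± 0.932), Trpm7 (4.38 ± 1.14), Trpc1 (3.50 ± 0.934), Trpm3 (2.85 ± 0.422), Trpm2 (2.25 ± 0.514), Trpc5 (2.24 ± 0.680), Trpm4 (1.44 ± 0.337) and Trpc7 (0.730 ± 0.291; SD, n = 5). Each neighbour in this order overlapped the next in its libraries. In VTA the order was Trpm7 (7.10 ± 1.26), Trpc4 (5.97 ± 1.67), Trpc5 (5.11 ± 1.39), Trpm3 (4.48 ± 0.547), Trpc6 (4.05 ± 0.566), Trpc1 (2.83 ± 0.345), Trpm2 (1.99 ± 0.499), Trpc7 (1.90 ± 1.16) and Trpm4 (1.54 ± 0.317; SD, n = 5). Here Trpc6 and Trpc1 were the only neighbours without overlap. Trpc6 had rank 1 in SNpc and rank 5 in VTA, and Trpc5 rank 7 and rank 3. With the length of the longest transcript, which for Trpc6 is 3259 bases in place of 5066, Trpc6 had rank 1 in SNpc and rank 2 in VTA. Trpc5 then had rank 7 and rank 5, and in VTA the mean of Trpc6 (6.29 CPM per kb) was above that of Trpc5 (5.11).

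**Figure D3:**
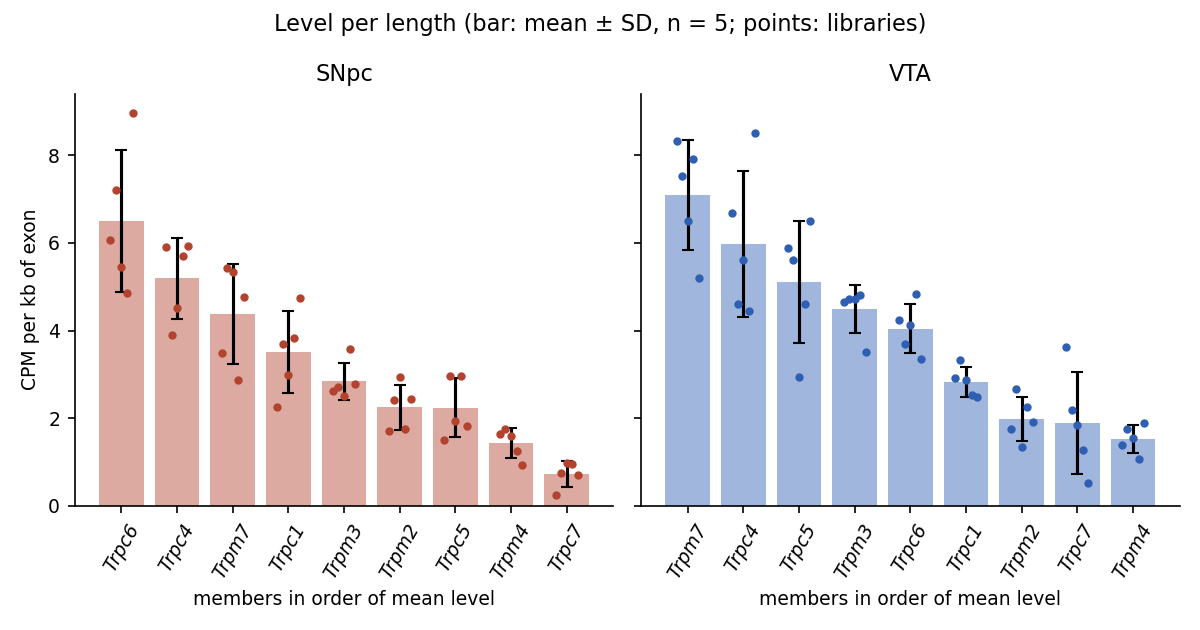
Level of the 9 channel genes in CPM per kb of exon (vertical axis) in SNpc (left) and VTA (right), in order of the mean, with bars for the mean, error bars for the SD and points for 5 libraries. Trpc6 leads in SNpc at 6.51 and Trpm7 in VTA at 7.10, and most neighbours overlap.

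As shares of the summed level of the 9 genes, Trpc6 made up 22.2% ± 3.81 of SNpc libraries and 11.6% ± 1.95 of VTA libraries (SD, n = 5 each), and Trpc5 7.72% ± 2.29 and 14.5% ± 3.57. The range for Trpc6 was 17.5% to 27.0% in SNpc and 9.87% to 14.3% in VTA. For Trpc5 the ranges overlapped, 5.52% to 10.6% and 9.33% to 19.2%. Trpc4 held 18.05% ± 4.07 and 17.2% ± 4.97. The summed TRPM level was 9.47 to 12.4 CPM per kb in SNpc and 12.5 to 16.7 in VTA, ranges that did not overlap, and Trpm3 and Trpm7 held most of it, whose calls ended when the length trend was removed.

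Other genes of the TRP family were mostly scarce. Of 20 listed outside the 9, 14 passed the filter. Of these, 1 was called higher in SNpc (7.14%, against 17.8% of all genes), 1 in VTA (7.14%, against 20.4%) and 12 were not called. The 14 had a median log2 fold change of -0.66 against -0.04 for all genes tested. This median includes scarce genes that were not called, Trpv1, Trpv3 and Trpv4 among them. Mcoln1, the TRP channel of lysosomes, averaged 24.4 ± 2.89 CPM over SNpc libraries and 13.7 ± 2.68 over VTA libraries (SD, n = 5 each), a log2 fold change of 0.83 (edgeR adjusted p = 9.49e-04). Pkd1, the large receptor-like partner of the TRP channel Pkd2 and the most abundant gene of the list, was 44.3 ± 12.1 and 161 ± 28.6 CPM, a log2 fold change of -1.86 (edgeR adjusted p = 1.96e-06). With the length trend removed and the scale kept it was -1.22 and still called. Trpm5 had 0 counts in all libraries, which allows up to 0.0369 to 0.0481 CPM per library, counting error only.

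The list for the route from Gq-coupled receptors to phospholipase C, which opens TRPC channels, had calls in both directions. It also holds Ntrk2, a receptor tyrosine kinase, and Plcg1 and Plcg2, phospholipases that such kinases activate. Ntrk2 and Plcg1, both called for VTA, are thus counted here though they are not coupled to Gq. Of 34 genes tested, 5 were called for SNpc (14.7%, against 17.8% of all genes) and 12 for VTA (35.3%, against 20.4%), and the median log2 fold change was -0.47, against -0.04 for all genes. Trhr, the receptor for thyrotropin-releasing hormone, averaged 25.01 ± 3.59 CPM over SNpc libraries and 9.76 ± 3.69 over VTA libraries (SD, n = 5 each), a log2 fold change of 1.36 (edgeR adjusted p = 1.80e-04). Cckar, a cholecystokinin receptor, was 1.82 ± 0.283 and 9.74 ± 2.70 CPM, a log2 fold change of -2.42 (edgeR adjusted p = 4.10e-06). Gnaq, the alpha subunit of Gq and the most abundant of the list, was 547 ± 55.9 and 455 ± 16.3 CPM, a log2 fold change of 0.27 (edgeR adjusted p = 0.0204). The call of Gnaq ended under 5 alternatives. Its log2 fold change was 0.23 without SNpc library 1 or without SNpc library 6, 0.16 with the glial covariate and 0.28 with the replicate block, and it also missed the test against 1.5-fold. The count of genes called for SNpc was 3 without SNpc library 1, 3 without SNpc library 3 and 2 without SNpc library 6. Shares of all genes called for SNpc in these fits were 14.6%, 15.7% and 16.7%.

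Among 40 partners and ligand enzymes of the channels, 9 were called for SNpc (22.5%) and 7 for VTA (17.5%), shares near those of all genes, and the median log2 fold change was -0.05. Prkca, a protein kinase C that diacylglycerol activates, averaged 457 ± 95.9 CPM over SNpc libraries and 279 ± 28.1 over VTA libraries (SD, n = 5 each), a log2 fold change of 0.71 (edgeR adjusted p = 3.13e-04). Itpr1, the inositol trisphosphate receptor of the endoplasmic reticulum, was 155 ± 9.41 and 333 ± 43.2 CPM, a log2 fold change of -1.10 (edgeR adjusted p = 4.92e-07).

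Of magnesium and zinc transport, the ions that Trpm7 conducts, 22 genes were tested. For SNpc 1 was called (4.55%, against 17.8% of all genes) and for VTA 4 (18.2%, against 20.4%). The median log2 fold change was -0.04, as it was for all genes. Nipal3, of the NIPA-like magnesium transporters and the most abundant of the list, averaged 109 ± 10.2 CPM over SNpc libraries and 84.3 ± 8.53 over VTA libraries (SD, n = 5 each), a log2 fold change of 0.37 (edgeR adjusted p = 0.00903), and with glial markers as a covariate its call ended. Magt1, a magnesium transporter that is also part of the oligosaccharyltransferase, was 10.9 ± 1.67 and 26.1 ± 4.10 CPM, a log2 fold change of -1.26 (edgeR adjusted p = 2.08e-05). With the length trend removed and the scale kept, log2 fold changes were -0.62 for Itpr1, 1.07 for Prkca, 0.71 for Nipal3 and 0.47 for Gnaq, and all 4 were called. The plot of the lists shows these genes around the 9 channels.

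**Figure D4:**
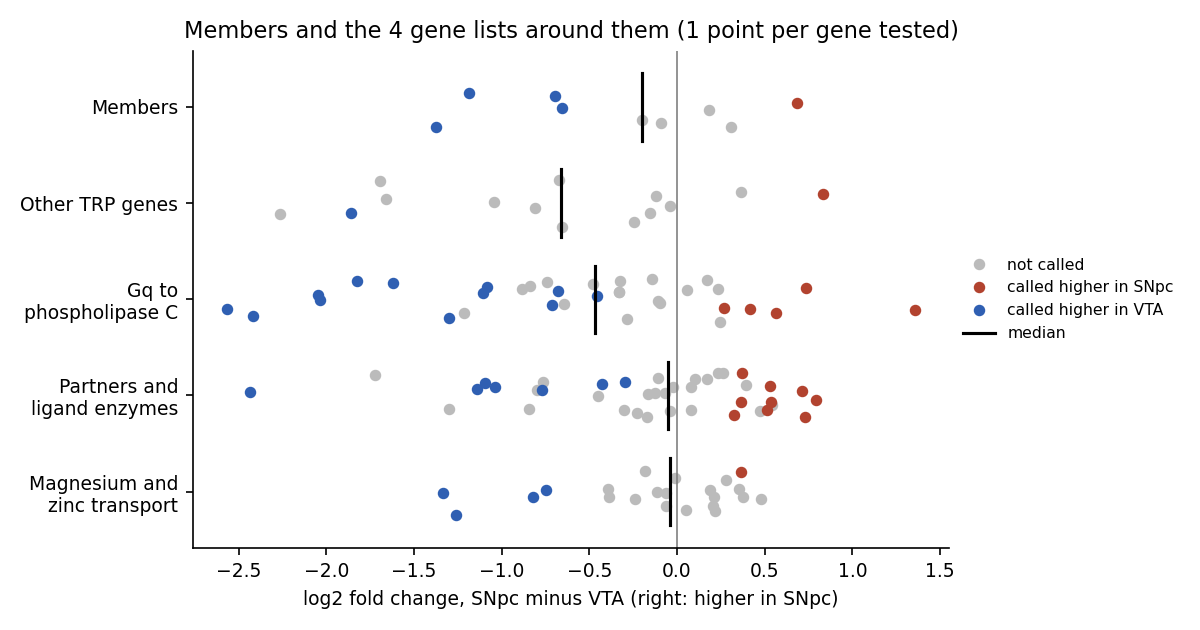
Log2 fold change, SNpc minus VTA (horizontal axis), of the 9 channel genes and of 4 gene lists, 1 point per gene tested, red where called higher in SNpc, blue where called higher in VTA and grey where not called, with a black line at the median. Both directions are present in each row. The list for the route from Gq to phospholipase C, which includes Ntrk2 and Plcg1, holds 12 blue and 5 red points.

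The genes most like Trpc6 and Trpm3, the called channel genes with the smallest p in each direction, were sought over 10 libraries among 15684 other genes by Pearson's r of log2 CPM. For Trpc6 these were the importin Ipo4 (r = 0.956), the phosphodiesterase Pde11a (r = 0.953) and the nucleolar protein Nop58 (r = 0.950). For Trpm3 they were the actin nucleator Spire1 (r = 0.971), Abhd1 (r = 0.967) and Smek1 (r = 0.963), a phosphatase subunit. The points share the library and the region, and the best of so many genes is high by choice, so these values are a description.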

How the data were processed

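The authors deposited raw counts of reads per gene, which are whole numbers. Reads were aligned with TopHat2 2.0.8 to mm10, per the submitters' processing notes. An amplification kit made cDNA from little RNA, and the sheared cDNA was sequenced as single-end reads, per the labels' protocols. The counting program, its annotation and its use of strand: not given in the sources used here. Of the columns 0 lacked a sample. The 9 genes, the lists and the rule for named genes (per list, the smallest p in each direction and the most abundant gene) were chosen with earlier results of these data known. The values of some genes that the rule would name are not reported here.

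Identical columns were counted once, as the design laid down. In R 4.3.3, edgeR 4.0.16 filtered genes (filterByExpr by region), scaled libraries by TMM and fitted a robust quasi-likelihood model to all 15685 genes, with region as the only term. P-values were adjusted by Benjamini-Hochberg and called under 0.05. Exact permutation tests were two-sided. Levels per length used GENCODE M21 exon unions. Alternatives included DESeq2 1.42.0, limma 3.58.1, other scalings and filters, a glial covariate, and removal of a length and GC spline trend . The test was checked on simulated data. No label names the animals behind a library. The p-values thus rest on library-to-library spread, part or all of which may be technical.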

Additional observations from a re-analysis of the deposited data

Results flagged for a closer look

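Among 18 groups of 5 libraries examined, those of the 9 genes in each region, 2 had 1 library far from the others, both for Trpm3. In SNpc, library 4 was the highest at 51.9 CPM, with the next at 40.4 CPM. In VTA, library 6 was the lowest at 50.9 CPM, with the next at 67.3 CPM. Chance marks about 1 in 20 such groups. SNpc library 4 also had the highest glial marker level, a mean log2 CPM of 3.64, and VTA library 6 was at 2.996, within the range of its region.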

How the results depend on the processing

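Of the 9 genes, Trpc5 kept its call under all 23 alternatives, Trpc6 under 21, Trpm3 and Trpm7 under 20 each and Trpc7 under 18, and none of these 5 changed direction. Trpm4 turned with the length trend removed (0.092 with the scale kept, 0.077 with it refitted) and without SNpc library 4 (0.018) or 6 (0.030), with values of -0.193 to 0.030 over all libraries left out. It was called in none of these.

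Against a minimum change of 1.5-fold 0 channel genes were called higher in SNpc and 1 in VTA, where 0.599% and 7.31% of all genes were. The numbers were 0 and 1 for the other TRP genes, 1 and 5 for the Gq route, 0 and 4 for the partners, and 0 and 2 for magnesium and zinc transport. The glial covariate left 0 channel genes for SNpc and 3 for VTA, where 9.89% and 13.7% of all genes were called. It left 2 and 10 for the Gq route, 4 and 5 for the partners, and 0 and 2 for magnesium and zinc transport. With the length trend removed 2 and 2 channel genes were called whether the scale was kept or refitted. Shares of all genes were 15.2% and 16.5% with the scale kept, and 14.8% and 17.1% with it refitted. For magnesium and zinc transport 3 genes were higher in SNpc in both fits. In VTA 2 were higher with the scale kept and 3 with it refitted. DESeq2 called 2 of 16 other TRP genes in each direction and 2 of 22 genes of magnesium and zinc transport in SNpc. Among all genes it called 19.2% for SNpc and 20.7% for VTA. Limma and the 12 columns as deposited each called 2 of 14 other TRP genes in VTA. The 12 columns also called 2 of 22 genes of magnesium and zinc transport in SNpc. Shares of all genes were 18.1% for SNpc and 22.1% for VTA with limma, and 21.9% and 24.1% with the 12 columns. The cause of these changes was not tested.

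Leaving out 1 library at a time gave 1 channel gene higher in SNpc throughout and 3 to 4 in VTA. It gave 1 to 2 and 1 to 3 for the other TRP genes, and 2 to 6 and 11 to 13 for the Gq route. The partners had 6 to 9 and 6 to 8, and magnesium and zinc transport 1 to 3 and 3 to 5. Over the same fits 14.5% to 20.9% of all genes were called for SNpc and 17.7% to 20.1% for VTA. Of the 9 places in the order of levels 7 to 9 were kept.

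Same-numbered libraries showed little shared deviation (correlations of -0.0723 to 0.0443 over 4 numbers). Whether they share animals or a batch is not stated by any label, and these 4 correlations cannot settle it. The identical columns carry 2 numbers each and only the first was used, so the pairs of numbers 2 and 4, and the block fit, rest on that choice. With the replicate number as a block 1 channel gene was called for SNpc and 3 for VTA, against 11.6% and 16.4% of all genes. Trpc7 was no longer called, at a log2 fold change of -1.41 (standard error 0.62 in place of 0.45, edgeR adjusted p = 0.110). That fit called 2 genes of the Gq route higher in SNpc and 10 in VTA, and 5 of the partners in each direction.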
